A study of Rattus norvegicus with 21 samples.

Results

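Tubular injury marker genes were followed here across the renal cortex of diabetic rats: Havcr1, Lcn2, Spp1, Clu, Vim, Timp1 and Cd44. These 7 genes were taken by Ensembl identifier from the 26404 genes in the files. All 7 identifiers were found, on the chromosome given for each gene, and all 7 passed the filter on low counts, which kept 14664 genes.

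The samples were renal cortex from male rats of 37 weeks of age. The groups were healthy Sprague Dawley controls (SD, n=6), sham-operated Zucker Diabetic Sprague Dawley rats (ZDSD, a strain that becomes obese and diabetic without a mutation of the leptin receptor; SHAM) and sham-operated ZDSD rats on diet plus medical therapy (DMT, n=6). DMT combined dietary restriction with ramipril, metformin, liraglutide, rosuvastatin and fenofibrate, and the labels of the deposit call it medical bypass. SHAM and DMT-treated rats thus shared the strain, the sham operation, and insulin, antibiotic and analgesic given around it. SD rats differed from both groups in strain, and the methods name no operation for them. In the labels, SD and SHAM libraries carry a remark that they were analysed again from an earlier deposit, and DMT libraries carry none, so treatment and that difference between libraries cannot be told apart.

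The deposit holds 9 SHAM libraries. Those of rats 343 and 348 had 121511 and 101534 counts, the difference between their counts was within sampling noise (chi-square test over genes, p=0.195), and neither entered the fit or the group values. The other 7 SHAM libraries had 14502127 to 23995113 counts, compared with 20896370 to 27597901 in SD rats and 22308943 to 26812590 in DMT-treated rats. With all 21 libraries in the fit, the same number of markers was called in each comparison. The same held with the libraries of rats 343 and 348 summed as 1 library. In the 19 libraries used, the lowest count of any marker was 16, for Havcr1 in an SD rat.

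A tubular epithelial cell that is injured loses its brush border and polarity, and the cells that survive flatten, dedifferentiate and proliferate before the epithelium is rebuilt. During that cycle the cells raise the transcripts of a set of genes, some of them scarce and others already abundant in intact kidney. Several of the products, such as kidney injury molecule 1 and neutrophil gelatinase-associated lipocalin, are shed or secreted into urine and are used there as injury biomarkers. In bulk cortex, more cells that express a gene and more transcript in each cell cannot be told apart.

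The products of the markers differ in what they do. Havcr1 encodes kidney injury molecule 1, a phosphatidylserine receptor of the proximal tubule that takes up apoptotic cells. Lcn2 encodes the iron-siderophore carrier lipocalin 2, and Clu encodes clusterin, a secreted chaperone. Spp1 encodes osteopontin, a secreted matrix phosphoprotein that binds integrins, and Cd44 encodes a receptor for hyaluronan that also binds osteopontin. Timp1 encodes an inhibitor of matrix metalloproteinases, and Vim encodes vimentin, the intermediate filament of mesenchymal and dedifferentiated epithelial cells.

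In the rn5 annotation of the files, Havcr1 (ENSRNOG00000007243) lies on chromosome 10 at 31644784 to 31668180 on the plus strand, with 8 exons. Lcn2 (ENSRNOG00000013973) lies on chromosome 3 at 16763059 to 16766466 on the minus strand, and Cd44 (ENSRNOG00000006094) on the same chromosome at 99339455 to 99426032, also on the minus strand. Spp1 (ENSRNOG00000043451) lies on chromosome 14 at 6653093 to 6658953, minus strand. Clu (ENSRNOG00000016460) lies on chromosome 15 at 48926516 to 48939266, minus strand. Vim (ENSRNOG00000018087) lies on chromosome 17 at 82500858 to 82509377, plus strand. Timp1 (ENSRNOG00000010208) lies on chromosome X at 2179963 to 2184589, minus strand, within the span of which 1 gene lies on the opposite strand. Counting used strand and all exons of a gene, from 765 bases for Timp1 to 3995 bases for Cd44, and no marker shared exon sequence with another gene on its strand.

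Promoter sequences of 6 markers, all but Clu, were found in RefSeq (GRCr8). Those of 4 markers are shown, because Havcr1 had the largest fold-change in SHAM, Lcn2 and Spp1 ranked the SHAM rats in the same order, and Vim was the marker that changed in both SHAM vs SD and DMT vs SHAM. Each sequence is the 250 bases before the transcript start, 5′ to 3′ on the strand of the gene, and capitals mark a match to a searched motif. The windows are chr10:31629528-31629777 (plus strand) for Havcr1, chr3:36081781-36082030 (minus strand) for Lcn2, chr14:5619805-5620054 (minus strand) for Spp1 and chr17:81577011-81577260 (plus strand) for Vim.
Havcr1: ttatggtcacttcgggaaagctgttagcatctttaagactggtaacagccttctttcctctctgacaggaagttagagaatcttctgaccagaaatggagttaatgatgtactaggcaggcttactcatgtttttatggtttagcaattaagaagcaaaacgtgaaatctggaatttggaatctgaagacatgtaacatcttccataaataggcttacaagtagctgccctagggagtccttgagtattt
Lcn2: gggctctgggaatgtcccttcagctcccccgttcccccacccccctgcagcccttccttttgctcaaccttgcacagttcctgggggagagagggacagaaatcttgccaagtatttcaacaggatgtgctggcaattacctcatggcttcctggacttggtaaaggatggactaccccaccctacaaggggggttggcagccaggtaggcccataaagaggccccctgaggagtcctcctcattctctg
Spp1: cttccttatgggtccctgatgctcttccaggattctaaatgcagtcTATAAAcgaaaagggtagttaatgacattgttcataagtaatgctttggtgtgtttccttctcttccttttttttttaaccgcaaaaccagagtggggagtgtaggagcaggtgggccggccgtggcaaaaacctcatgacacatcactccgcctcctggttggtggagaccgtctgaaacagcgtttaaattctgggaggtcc
Vim: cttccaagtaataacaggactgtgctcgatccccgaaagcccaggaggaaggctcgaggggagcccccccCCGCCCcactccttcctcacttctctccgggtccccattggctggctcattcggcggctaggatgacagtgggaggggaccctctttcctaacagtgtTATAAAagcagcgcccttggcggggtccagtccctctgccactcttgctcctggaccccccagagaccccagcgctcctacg

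The motifs searched, on both strands, were the AP-1 element TGACTCA (in 4.05% of 33469 RefSeq promoter windows of the same length), the STAT element TTCNNNGAA (7.67%), the GC box GGGCGG (30.5%) and the TATA box TATAAA (12.9%). Spp1 held a TATA box 204 to 199 bases before its start. Vim held a GC box 180 to 175 bases and a TATA box 82 to 77 bases before its start. Timp1 held a GC box 142 to 137 bases before its start. No match to any of these motifs was found in the windows of Havcr1, Lcn2 and Cd44, and Lcn2 and Spp1 shared none. A match here describes letters and is not evidence of a site in use.

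Levels were compared between markers as RPKM, which allows for gene length and is the CPM per kilobase of exon. CPM here means counts per 1000000 of the TMM-normalized library size. Osteopontin was the most abundant marker in each group, at a mean of 122 ± 39.9 (SD) in SD rats, 655 ± 615 in SHAM and 792 ± 209 in DMT-treated rats. Its mean in SHAM was above that of 99.5% of the genes tested. Clusterin followed in each group (103 ± 46.1, 108 ± 66.0 and 137 ± 17.9 RPKM) and vimentin came next (37.2 ± 4.96, 62.7 ± 18.8 and 43.0 ± 4.18 RPKM). In SD rats the neighbouring levels of Spp1 and Clu overlapped, from 64.7 to 188 and from 52.2 to 158 RPKM. Havcr1 was the lowest marker per length in SD rats, at 1.77 ± 1.38 RPKM, and stood above Lcn2, Timp1 and Cd44 by mean in SHAM, at 12.2 ± 17.6 RPKM. That mean was carried by a few rats, as its range in SHAM was 0.808 to 46.0 RPKM.

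How marker transcript levels differed between the cortex of untreated diabetic rats and that of healthy rats was addressed by SHAM vs SD. Here 5 of the 7 markers were higher in SHAM and none was lower, where 18.3% of the genes tested were called, 10.3% higher and 7.95% lower. The call required an adjusted p-value (edgeR quasi-likelihood test, Benjamini-Hochberg) under 0.05 and a fold-change of 1.3 or more in either direction. The median log2 fold-change was 0.75 over the 7 markers and 0.0056 over all genes tested. Havcr1 and Spp1 had the largest fold-changes, while Clu and Cd44 were not called. For no marker were all SHAM rats above all SD rats, which was so, in either direction, for 8.61% of the genes tested.

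**Figure D1:**
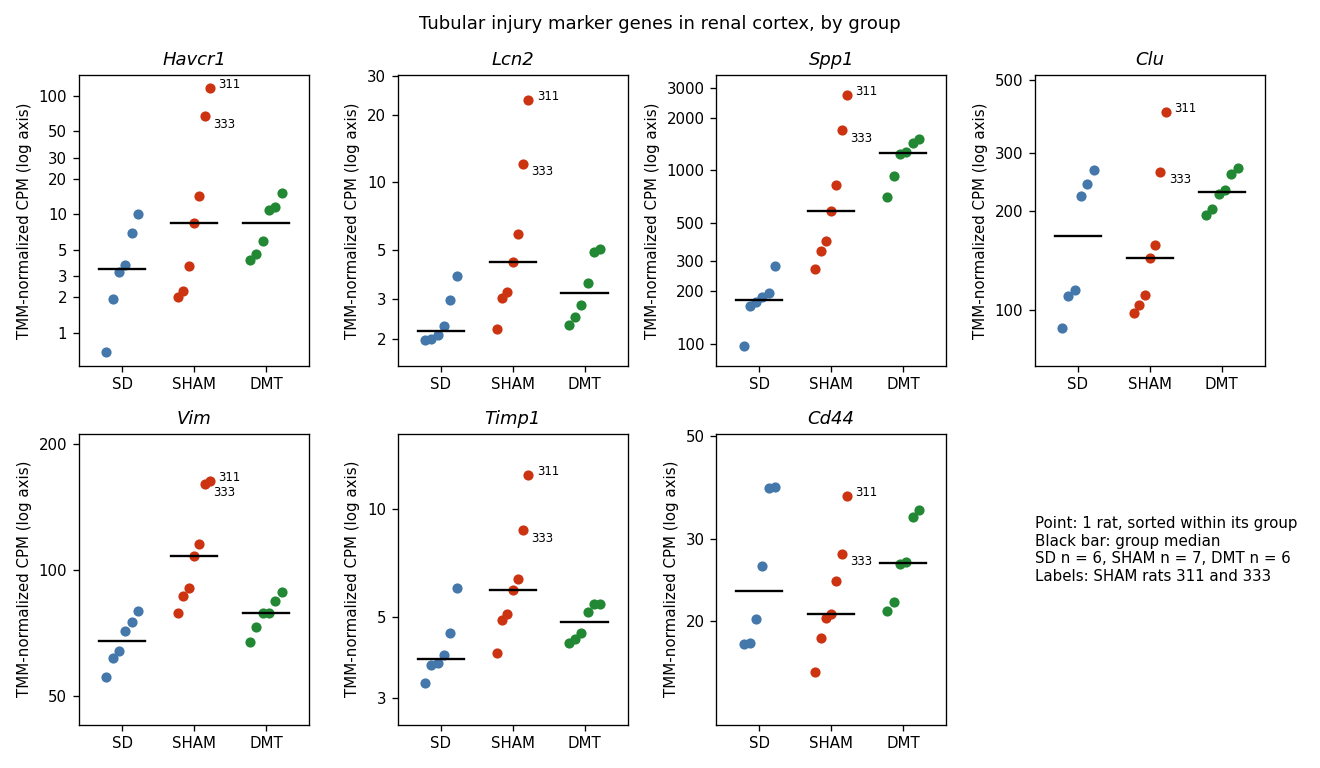
Normalized CPM of each marker on a log axis in SD, SHAM and DMT-treated rats, with 1 point per rat and a bar at the group median. Rats 311 and 333 are the highest SHAM rats in all 7 panels, and for Spp1 the DMT-treated rats (698 to 1519 CPM) all lie above the SD rats (96.8 to 282 CPM).

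Havcr1 was scarce in SD rats, at 0.689 to 10.1 CPM (median 3.49). In SHAM, rats 311 and 333 had 116 and 67.7 CPM, rats 334 and 315 had 14.2 and 8.44 CPM, and rats 340, 321 and 317 had 3.70, 2.25 and 2.03 CPM. Thus 3 of 7 SHAM rats were above every SD rat, while the other 4 lay within the SD range. The log2 fold-change of Havcr1 was 2.79 ± 0.86 (SE; 95% interval 0.99 to 4.60; adjusted p=0.0177). It rested in part on 1 rat: without rat 311 it was 1.87 (adjusted p=0.0696), and Havcr1 was no longer called. Nor was it called with limma-voom (log2 fold-change 1.76, adjusted p=0.194) or with a fold-change of 1.3 tested in the model (adjusted p=0.0777).

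Lcn2 ranged from 1.97 to 3.80 CPM in SD rats (median 2.16). Its SHAM levels were 23.3 and 12.1 CPM in rats 311 and 333, 5.86 and 4.4 CPM in rats 334 and 315, and 3.22, 3.03 and 2.21 CPM in rats 317, 321 and 340. Lipocalin 2 was therefore above every SD rat in 4 of 7 SHAM rats, and the other 3 overlapped with SD. The log2 fold-change was 1.63 ± 0.46 (SE; adjusted p=0.0105), and 1.02 without rat 311 (adjusted p=0.0323). Lcn2 was no longer called with limma-voom (log2 fold-change 1.23, adjusted p=0.0555) or with a fold-change of 1.3 tested in the model (adjusted p=0.0623).

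Spp1 was measured at 96.8 to 282 CPM in SD rats (median 178.7). Its SHAM levels were 2745 and 1703 CPM in rats 311 and 333, 827 and 583 CPM in rats 334 and 315, and 389.6, 342 and 269 CPM in rats 317, 321 and 340. All SHAM rats but rat 340 lay above the highest SD rat. Osteopontin transcript rose by 2.42 ± 0.47 on the log2 scale (SE; adjusted p=0.000774), a 5.36-fold difference (95% interval 2.72 to 10.6).

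Vim differed by less but more evenly. It was 55.7 to 80.0 CPM in SD rats (median 67.8) and 79.0 to 163 CPM in SHAM (median 107.9), with 6 of 7 SHAM rats above every SD rat. Its log2 fold-change was 0.75 ± 0.15 (SE; adjusted p=0.00103). Timp1 ranged from 3.29 to 6.04 CPM in SD rats (median 3.84) and from 4.0 to 12.4 CPM in SHAM (median 5.97), and 3 of 7 SHAM rats were above every SD rat. Its log2 fold-change was 0.70 ± 0.21 (SE; adjusted p=0.0174), and with a fold-change of 1.3 tested in the model it was not called (adjusted p=0.231).

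Clu and Cd44 were not called in SHAM vs SD. Clu was 88.0 to 266 CPM in SD rats (median 168) and 97.8 to 399 CPM in SHAM (median 143.5), and only rat 311 was above every SD rat. The log2 difference was 0.07 (95% interval -0.59 to 0.74; adjusted p=0.878). Clu levels in SD rats lay in separate ranges, with 3 rats at 88.0 to 115 CPM and 3 at 221 to 266 CPM. Cd44 was 17.8 to 38.9 CPM in SD rats (median 23.2) and 15.6 to 37.2 CPM in SHAM (median 20.6), with a log2 difference of -0.18 (95% interval -0.63 to 0.28; adjusted p=0.547). The intervals leave room for a difference of either sign in both genes.

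**Figure D2:**
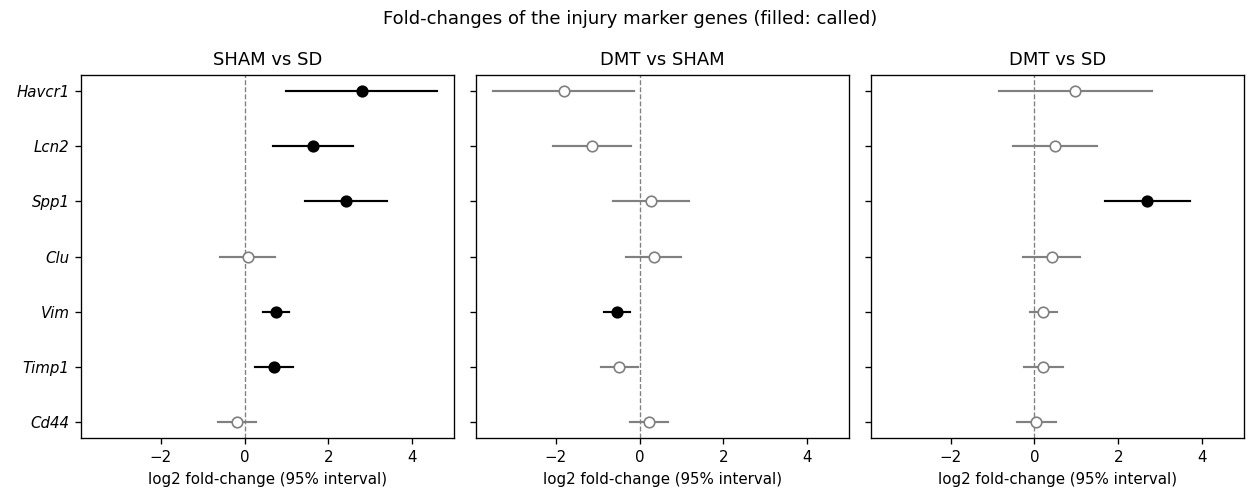
Log2 fold-changes with 95% intervals of the 7 markers in SHAM vs SD, DMT vs SHAM and DMT vs SD, where filled points are called and the dashed line is no change. The called markers are Havcr1, Lcn2, Spp1, Vim and Timp1 in SHAM vs SD, Vim in DMT vs SHAM and Spp1 in DMT vs SD.

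The effect of treatment on the markers was addressed by DMT vs SHAM. Vim was lower in DMT-treated rats, and it was the only marker of 7 called, where 11.5% of the genes tested were called, 7.36% lower and 4.12% higher. Spp1, Clu and Cd44 had log2 fold-changes above 0, and none of them was called. The median log2 fold-change was -0.48 over the markers and -0.0040 over all genes tested. The same SHAM rats entered this comparison and SHAM vs SD, so the 2 sets of fold-changes are not independent.

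Vim was 67.4 to 88.9 CPM in DMT-treated rats (median 79.0), and 5 of 7 SHAM rats were above every DMT-treated rat. All 6 DMT-treated rats lay below the SHAM median. The vimentin transcript fell by 0.54 on the log2 scale (SE 0.15; 95% interval -0.86 to -0.23; adjusted p=0.0154). It was no longer called when a fold-change of 1.3 was itself the hypothesis of the test (adjusted p=0.543).

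Havcr1 was 4.09 to 15.1 CPM in DMT-treated rats (median 8.48). By mean it was 8.70 ± 4.45 (SD) CPM in DMT-treated rats and 30.6 ± 44.2 CPM in SHAM, whereas the medians of both groups were nearly equal (8.48 and 8.44 CPM). Only rats 311 and 333 were above every DMT-treated rat. The log2 fold-change of Havcr1 was -1.81 (95% interval -3.50 to -0.13) and was not called (adjusted p=0.119). Without rat 311 it was -0.89 (adjusted p=0.440), and with limma-voom -0.49 (adjusted p=0.719).

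Lcn2 was 2.31 to 5.06 CPM in DMT-treated rats (median 3.18), and 3 of 7 SHAM rats lay above that range. Its log2 fold-change was -1.14 (95% interval -2.07 to -0.21; adjusted p=0.0756), and -0.53 without rat 311 (adjusted p=0.308). Timp1 was 4.26 to 5.46 CPM in DMT-treated rats (median 4.86), all below the SHAM median, with a log2 fold-change of -0.48 (95% interval -0.92 to -0.04; adjusted p=0.115). Whether these genes were called depended on single rats. Without SHAM rat 340, Lcn2 (adjusted p=0.0315) and Timp1 (adjusted p=0.0446) were called lower in DMT, and without SHAM rat 321 Lcn2 was (adjusted p=0.0485).

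Spp1 was 698 to 1519 CPM in DMT-treated rats (median 1264), and all 6 were above the SHAM median. Even so, rats 311 and 333 were higher than every DMT-treated rat, and the log2 difference was 0.27 (95% interval -0.64 to 1.19; adjusted p=0.704). Clu was 194.7 to 271 CPM in DMT-treated rats (median 228), also above the SHAM median in all 6 rats. The log2 difference for Clu was 0.34 (adjusted p=0.485). Cd44 was 20.9 to 34.5 CPM in DMT-treated rats (median 26.7), again above the SHAM median in all 6 rats, with a log2 difference of 0.22 (adjusted p=0.517).

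The levels that remained different from healthy cortex under treatment were addressed by DMT vs SD. Spp1 was the only marker of 7 called, and it was higher in DMT-treated rats, where 18.2% of the genes tested were called, 8.01% higher and 10.2% lower. The lowest DMT-treated rat (698 CPM) was above the highest SD rat (282 CPM), as was so in that direction for 7.92% of the genes tested. Osteopontin transcript rose by 2.70 ± 0.48 on the log2 scale (SE; adjusted p=0.000314), a 6.48-fold difference (95% interval 3.22 to 13).

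For the remaining 6 markers the difference from SD was not called. Their log2 differences were 0.98 for Havcr1 (95% interval -0.85 to 2.81; adjusted p=0.414), 0.49 for Lcn2 (adjusted p=0.456), 0.41 for Clu (adjusted p=0.356), 0.21 for Vim (adjusted p=0.319), 0.22 for Timp1 (adjusted p=0.483) and 0.04 for Cd44 (adjusted p=0.905). The interval for Vim was -0.12 to 0.53, and that for Havcr1 reached a 7.0-fold difference. Of these genes, Havcr1 was above every SD rat in 3 of 6 DMT-treated rats, Lcn2 and Vim in 2, Clu in 1, and Timp1 and Cd44 in none. The adjusted p-values above rest on a spread of each gene estimated over all 3 groups, SHAM included. With only SD and DMT in the fit, adjusted p (edgeR quasi-likelihood test) was 0.0749 for Vim, 0.116 for Lcn2 and 0.131 for Havcr1. It was 0.193 for Clu, 0.235 for Timp1 and 0.865 for Cd44, and none of the 6 was called.

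Within SHAM, the same animals carried the high values. Rat 311 was the highest SHAM rat for all 7 markers and rat 333 the second highest for all 7. Rat 311 was the highest SHAM rat for 13.3% of the genes tested and rat 333 for 28.0%, and the order of rat 311 first and rat 333 second was found for 5.07%. At the other end, rat 340 was the lowest for 4 markers. Cd44 was an exception there, since rat 340 had the third highest level (24.4 CPM).

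**Figure D3:**
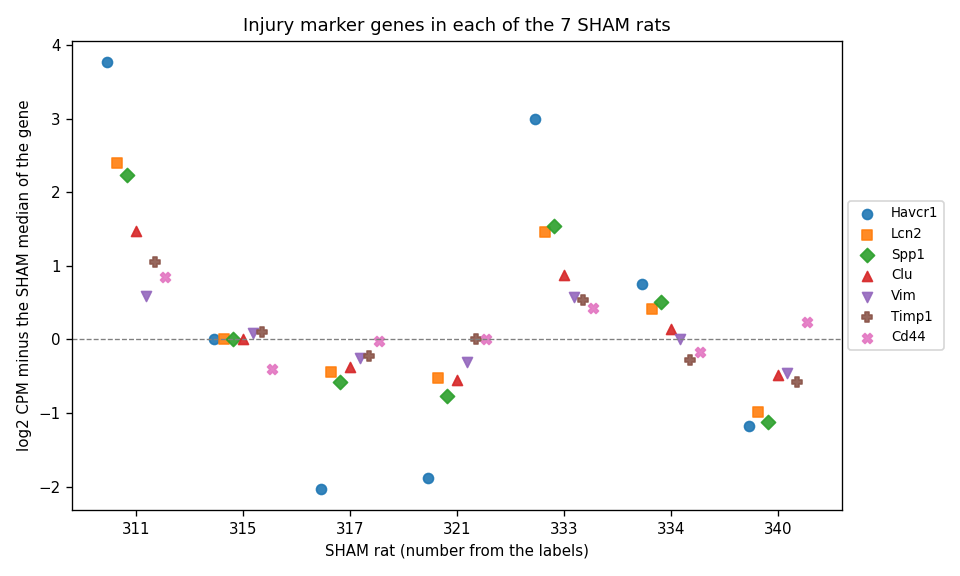
Log2 CPM of each marker in each of the 7 SHAM rats, as the difference from the median of that gene in SHAM, with 1 symbol per marker. All symbols of rats 311 and 333 lie above 0 with Havcr1 on top, whereas rats 317 and 340 lie below 0 for all markers except Cd44 in rat 340.

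The library of rat 311 had the highest and that of rat 333 the lowest total count of the 7 SHAM libraries. Their TMM factors were 1.05 and 1.13, in a SHAM range of 1.01 to 1.13. What part library depth has in the marker levels of these rats was not tested. The remaining 5 SHAM rats ranged from 2.03 to 14.2 CPM for Havcr1, 2.21 to 5.86 CPM for Lcn2, 269 to 827 CPM for Spp1, 97.8 to 158 CPM for Clu, 79.0 to 115 CPM for Vim, 4.0 to 6.39 CPM for Timp1 and 15.6 to 24.4 CPM for Cd44. Among these 5, 4 rats were above every SD rat for Spp1 and Vim, 2 for Lcn2, 1 for Havcr1 and Timp1, and none for Clu and Cd44.

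A shared leader was also seen in the other groups. SD rat 356 was the highest SD rat for 6 markers, all but Vim, where it was the highest for 13.7% of the genes tested. In DMT, rat 316 was the highest for 6 markers, all but Clu, against 15.5% of the genes tested, and rat 341 was the second highest for those 6.

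Between pairs of markers, log2 CPM within SHAM correlated positively for all 21 pairs, with Pearson's r from 0.556 to 0.995 (median 0.921, n=7). At an adjusted p-value under 0.05 in an exact two-sided permutation test, with Benjamini-Hochberg adjustment over the 21 pairs, 15 pairs passed by Pearson's r and 7 by Spearman's rho. All values of a rat come from 1 library. The share of pairs that pass among all genes tested was not determined, so these counts do not set the markers apart from other genes. The closest pair was Lcn2 with Spp1 (r=0.995, permutation p=0.000198, adjusted p=0.00347), which ranked the 7 rats identically (rho=1.0, exact p=0.000397, adjusted p=0.00833). The p-value of r is the smallest that 7 rats allow. Havcr1 with Clu followed the same pattern (r=0.976, permutation p=0.000992, adjusted p=0.00347; rho=0.893, adjusted p=0.0369 by permutation), although Clu was not called in SHAM vs SD.

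With the 2 rats farthest from the median of the first gene left out, r ranged from -0.961 to 0.993 (median 0.627) and 16 of 21 pairs stayed above 0. The rats left out were 311 and 333 in 20 pairs, and 311 and 340 in the pair of Timp1 with Cd44. With the farthest rats taken by the second gene of each pair, 15 pairs stayed above 0 (median 0.765), an order chosen after seeing the data. Lcn2, Spp1, Clu and Vim kept r of at least 0.905 with each other. Lcn2 with Spp1 had r=0.993. The relation of Timp1 to Havcr1 rested on the rats left out, as r went from 0.828 to 0.06 without rats 311 and 333 and was 0.694 without rats 311 and 340. None of the 6 pairs with Cd44 had passed the test, and without rats 311 and 333 r was negative in all 6, down to -0.961 with Vim. For Timp1 with Cd44 it was -0.787 without these rats and 0.627 without rats 311 and 340, so the sign of that pair depended on which rats were left out.

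**Figure D4:**
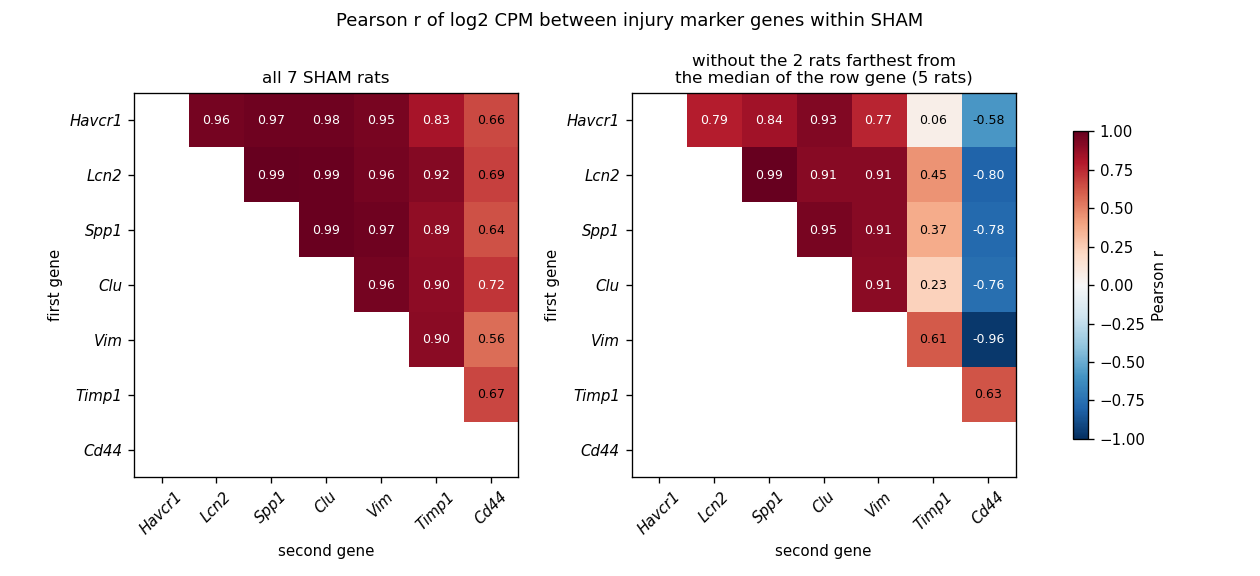
Pearson's r of log2 CPM between each pair of markers, colored from -1 to 1, over all 7 SHAM rats and without the 2 rats farthest from the median of the first gene (5 rats). The pairs among Lcn2, Spp1, Clu and Vim stay at 0.905 or above in both panels. In the second panel 5 pairs with Cd44 are negative, while Timp1 with Cd44 is 0.627 there, leaving out rats 311 and 340 in place of 311 and 333.

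Across all 19 libraries the gene most like each marker, by Pearson's r of log2 CPM, had r=0.968 for Vim, 0.962 for Timp1, 0.939 for Lcn2, 0.93 for Spp1, 0.922 for Havcr1, 0.835 for Cd44 and 0.818 for Clu. These genes are not named, since nothing used here pairs their identifiers with symbols. For the second most alike gene r was 0.956 for Vim, 0.938 for Timp1, 0.927 for Lcn2, 0.925 for Spp1, 0.913 for Havcr1, 0.774 for Clu and 0.768 for Cd44. That of Lcn2 was another marker, Timp1. With r above 0.9 there were 26 genes for Vim, 10 for Timp1, 7 for Lcn2, 6 for Spp1, 3 for Havcr1, and none for Clu and Cd44. The 3 groups form clusters in these data, and the values of r are descriptive.

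The spread between rats was larger for the markers than for most genes. In SHAM the SD of log2 CPM was 2.31 for Havcr1, 1.25 for Spp1, 1.2 for Lcn2, 0.76 for Clu, 0.55 for Timp1, and 0.42 for Vim and Cd44, where the median gene had 0.19. That of Havcr1 exceeded 99.8% and that of Cd44 83.6% of the genes tested. In DMT-treated rats all 7 SDs were smaller than in SHAM, from 0.14 for Vim to 0.78 for Havcr1, and the median gene was also lower (0.12). In SD rats, Havcr1 (1.35), Clu (0.69) and Cd44 (0.52) varied most, where the median gene had 0.17.

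**Figure D5:**
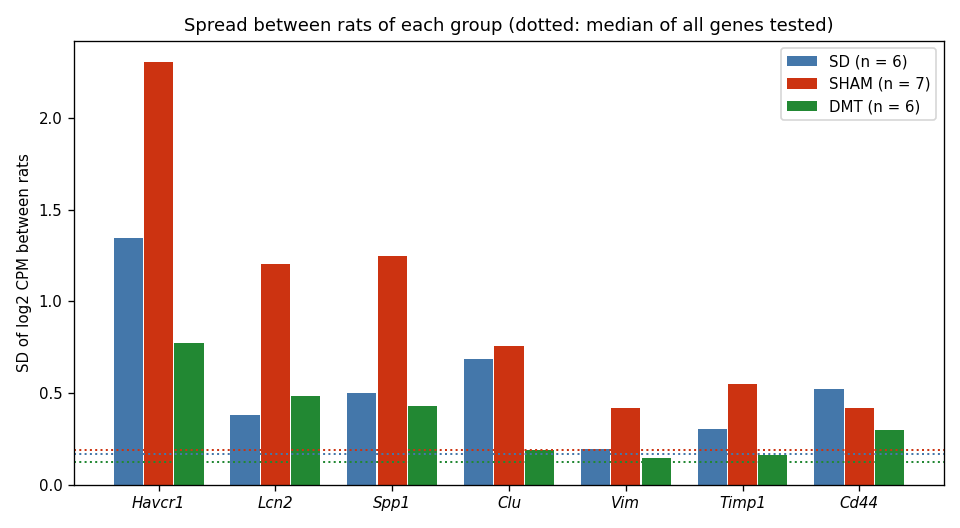
SD of log2 CPM between the rats of each group for the 7 markers, with dotted lines at the median of all genes tested in the same group. Bars of SHAM exceed those of DMT for all 7 markers, from 2.31 against 0.78 for Havcr1 to 0.42 against 0.30 for Cd44.

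These differences in spread did not pass a test. The mean absolute deviation from the group median was larger in SHAM than in DMT for 7 of 7 markers and larger than in SD for 5 of 7, all but Clu and Cd44. Two-sided permutation tests of the deviations used all 1716 splits of 7 and 6 rats. Of the 14 tests, 0 passed, with or without the Benjamini-Hochberg adjustment over the 14. Deviations were taken from each group's own median before splitting, so these p-values are approximate. With 7 rats the SHAM median is itself a rat, whose deviation of 0 lowers the SHAM mean, unlike in groups of 6. Equal spread is therefore not concluded either. Vim in SHAM against DMT had the smallest p-value (p=0.0507, adjusted p=0.207 by the permutation test). Without SHAM rat 315, Havcr1 and Clu passed against DMT (adjusted p=0.0455 and 0.0303 in the same permutation test). Rat 315 was itself the SHAM median for both genes. Leaving out a rat at the median raises the mean deviation of the others, so no wider spread is concluded from it.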

How the data were processed

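Total RNA of renal cortex was depleted of ribosomal RNA and sequenced as paired ends from stranded libraries. The authors trimmed reads (Trim Galore, Cutadapt), mapped them to rn5 with STAR then assigned fragments to gene exons by featureCounts (1.6.4, reverse strand), and the deposited values are these counts, which are not normalized, for 26404 genes in 21 rats. Groups were taken from the labels.

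Per the rule for these genes, SHAM libraries under 1000000 counts were left out. In edgeR (4.0.16, R 4.3.3), filterByExpr removed genes with low counts (minimum count 10, minimum total 15), libraries were normalized by TMM, and 1 quasi-likelihood model was fitted to the 3 groups. Standard errors came from the F statistic, and 95% intervals are not adjusted for multiple testing. Log2 CPM used a prior count of 1. P-values were adjusted over all 14664 genes by the Benjamini-Hochberg procedure, and genes past both thresholds, 0.05 for the adjusted p-value and 1.3 for the fold-change in either direction, were called. The fit was tested on simulated data for SHAM vs SD. It recovered 89.9% of simulated log2 changes of 1 and 99% of those of 2, with 5 false calls. Each simulated gene was given the same spread in all groups, so a spread that differs between groups was not covered. Depth was 14502127 to 27597901 counts in the 19 libraries used, and 3 counts equal at most 0.207 CPM there.

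The genes, lists and tests were chosen with earlier results of these data known. Each marker was named with its values, and the most alike genes were given by r only. The files pair no identifier with a symbol, and 0 identifiers matched the reference table, so marker symbols come from the rule, with chromosome and, for the 6 genes with a promoter entry, strand matching the RefSeq entry. Hence further injury genes, receptors and partners of the markers, and cell type markers were not analysed here. Alternatives were other tests (DESeq2 1.42.0, limma-voom 3.58.1), scalings, filters and uses of the fold-change threshold, other handling of the 2 shallow libraries, and leaving out each rat. Spread tests, correlations and plots used Python 3.11.15 with scipy 1.17.1 and matplotlib 3.10.9.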

Additional observations from a re-analysis of the deposited data

Results flagged for a closer look

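The SHAM libraries of rats 343 and 348, which were left out of every comparison, held levels of 2 markers whose intervals lay above the SD range. By library total, Spp1 was 576 CPM in rat 343 (70 counts; exact Poisson 95% interval 449 to 728) and 827 CPM in rat 348 (84 counts; 659.9 to 1024), above the highest SD rat (274 CPM). Vim was 139.9 CPM in rat 343 (17 counts; 81.5 to 224) and 148 CPM in rat 348 (15 counts; 82.7 to 244), with both lower bounds just above the highest SD rat (80.6 CPM). The intervals cover counting error only. Havcr1 had 3 counts in each of both libraries, and the intervals of Havcr1, Lcn2, Clu, Timp1 and Cd44 all reached the SD range. The 2 libraries are counted as 1 sample, since the difference between them was within sampling noise.

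In 27 groups of values checked for a rat that stood far from the rest of its group, 2 were found, where about 1.35 are expected by chance, at 1 in 20. Both were TMM factors, 1.13 in SHAM rat 333 and 1.03 in DMT rat 328. No marker level met the criterion in any group. The criterion set the gap between an end rat and its neighbour against the range, so 2 high rats can mask each other. Havcr1 in SHAM was 116 and 67.7 CPM in rats 311 and 333 and at most 14.2 CPM in the rest, and was not flagged. The part of the TMM factor of rat 333 in its marker levels was not tested beyond the scalings below.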

How the results depend on the processing

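Of 630 combinations of a marker's fold-change with an alternative, 620 kept their direction, where called, and their side of the threshold, 7 were no longer called, 3 became called and 0 reversed. Part of that agreement was given beforehand, as leaving out a rat of the group not compared hardly moves a fold-change. For a marker not called in the main fit, keeping its side means only that it stayed uncalled. In SHAM vs SD, 3 markers were called with limma-voom, without Havcr1 and Lcn2 (log2 fold-change of Lcn2 1.23, adjusted p=0.0555), and 2 when a fold-change of 1.3 was tested in the model, without Havcr1 (adjusted p=0.0777), Lcn2 (adjusted p=0.0623) and Timp1 (adjusted p=0.231), the test then having a wider null. In DMT vs SHAM that test called 0 markers. Of all genes tested, it called 5.52% in SHAM vs SD and 3.14% in DMT vs SHAM, and limma-voom called 18.2% in SHAM vs SD. With DESeq2, 5, 1 and 1 markers were called in SHAM vs SD, DMT vs SHAM and DMT vs SD, where 19%, 12.4% and 19% of the genes tested were called. Leaving out each rat gave 4 to 5 markers in SHAM vs SD, 1 to 3 in DMT vs SHAM and 1 in DMT vs SD, the fewest and most being without rat 311 and rat 340. Of all genes tested, 15% to 21%, 9.53% to 13.4% and 16.5% to 19.2% were called in these fits, in the same order of comparisons. Markers whose spread in SHAM differed from DMT numbered 0 to 2, the 2 being without rat 315, and correlated pairs numbered 10, without rat 311, to 17, without rat 340. With the farthest rats taken by the second gene of a pair, r of Timp1 with Cd44 went from 0.627 to -0.787. In that last change rat 333 was left out in place of rat 340, and rat 315 was the SHAM median for Havcr1 and Clu. The cause of the other changes was not tested. Over all genes, 2681, 1684 and 2663 were called in SHAM vs SD, DMT vs SHAM and DMT vs SD, compared with 5131, 2975 and 4682 without a fold-change threshold and 810, 461 and 1091 with the fold-change tested in the model. With library totals as the only scaling, the median log2 fold-change of all genes in SHAM vs SD shifted by 0.13, and the share of called genes that were higher went from 56.5% to 76.9%. In DMT vs SD that share went from 44.1% to 57.5%. The number of markers called in each comparison was the same with that scaling.

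No paired analysis was possible because the labels give each rat its own number. Depth limited the 2 shallow SHAM libraries, where all markers but Spp1 had at most 24 counts.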
